A study of Mus musculus with 2 samples.

Results

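Intraflagellar transport is the train system of the cilium, and this account covers the genes of its 2 cargo-bearing complexes and its 2 motors in the embryonic mouse pituitary with and without the kinase gene Dyrk2. The members are the 33 genes named for IFT-A, IFT-B, kinesin-2 and dynein-2, taken by symbol from the 55401 genes of each deposited table. They comprise 6 IFT-A genes, 12 genes of the IFT-B core, 6 of peripheral IFT-B, 5 of kinesin-2 and 4 of dynein-2. All 33 were found, and 31 reached at least 1 FPKM (fragments on each kilobase of a gene's exons, relative to the library's total), each of them in both libraries. The samples are pituitaries of Dyrk2-KO mice, labelled Dyrk2-/- in the design, and of WT mice, both at E12.5 of embryonic life. There was 1 polyA-selected, stranded library for each genotype. The labels do not say how the allele was made, which strain was used, or how many embryos, of which sex, went into a library. The series title asks about primary cilia in cell-type determination and vessel growth in this organ.

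Cilia are built without ribosomes inside them, so their proteins, tubulin and membrane proteins among them, have to enter from the cell body. IFT-B trains travel to the tip on kinesin-2 and return to the base on dynein-2, and IFT-A takes part in the return and in the entry of membrane receptors. In mouse embryos, Hedgehog signals are read at the primary cilium, and mutants of many of these genes have altered Hedgehog responses. Dyrk2 is a protein kinase that has been linked to ciliary length and to Hedgehog signalling in mouse.

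With 1 library on each side no difference has a replicate check, and no test or p-value is given. The libraries held 20115768 fragments (Dyrk2-KO) and 20044925 fragments (WT), as recovered from the steps between values. All intervals are 95% intervals for counting error, which leave out the spread between embryos, dissections and preparations. Dyrk2 itself had 1.93 FPKM in the Dyrk2-KO library, against 11.5 FPKM in the WT library, or 16.8% of the WT level (14.6% to 19.2%), which goes with the labels. All 9 listed markers of pituitary progenitors were present, with 5 intervals of the ratio below 1 and 1 above. Of all 14000 genes that reached 1 FPKM in either library, 22.3% had an interval below 1 and 17.7% above. The markers had a median log2 ratio of -0.14 after adding 0.5 FPKM to each value. The most abundant was Pitx1, a homeobox gene of the oral ectoderm and pouch, at 227 FPKM in Dyrk2-KO and 250.4 FPKM in WT. Six6 had 69.7 FPKM in Dyrk2-KO and 95.3 FPKM in WT, and Lhx4, the one gene of this list past 1.5-fold, 5.52 FPKM in Dyrk2-KO and 8.61 FPKM in WT. Lhx3, the marker with the interval above 1, had 85.9 FPKM in Dyrk2-KO and 73.0 FPKM in WT. The samples also differed in makeup. Xist, transcribed from the inactive X chromosome, had 14.8 FPKM in Dyrk2-KO and 74.98 FPKM in WT. The Y-linked gene Ddx3y had 14.95 FPKM in Dyrk2-KO and 5.83 FPKM in WT, so both held RNA of both sexes in unlike shares. Genotype, sex mixture and library therefore cannot be told apart.

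As a group the transport genes were at nearly the same level in both libraries. Their summed level was 329 FPKM in the Dyrk2-KO library and 342 FPKM in the WT library. Among the 31 members of at least 1 FPKM, the lowest plain ratio of Dyrk2-KO over WT was 0.778, for Wdr19, and the highest was 1.16, for Ttc26. On the log2 scale with 0.5 FPKM added to both values, the ratios ran from -0.31 to 0.19 with a median of -0.07, and 21 lay below 0 and 10 above. The median over all 14000 genes that reached 1 FPKM in either library was -0.02. Of these, 53.7% lay below 0, against 67.7% of the 31 members. On that scale no member of the 31 was as much as 20% lower or 25% higher in Dyrk2-KO, which are equal steps in log2. Of all 14000 genes, 11.3% were at least 20% lower and 5.42% at least 25% higher. None of the 31 was past 1.5-fold either, against 4.56% of all genes lower and 2.06% higher by that much. The means of the 31 members ran from 3.42 to 28.6 FPKM. Of the 7648 protein-coding genes in that range, 465 were at least 20% lower and 187 at least 25% higher. Past 1.5-fold were 129 of these lower and 33 higher. Thus 91.5% of them stayed within the first limits, as all 31 members did, and 97.9% within 1.5-fold. The share of these 7648 genes with a log2 ratio below 0 was 54.1%.

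**Figure D1:**
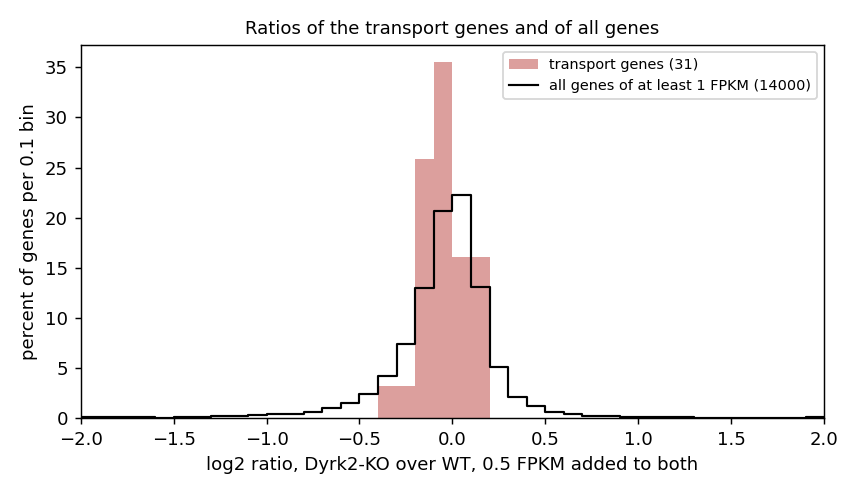
Percent of genes per bin of 0.1 in the log2 ratio of Dyrk2-KO over WT, with 0.5 FPKM added to both values; filled bars are the 31 transport genes and the line is all 14000 genes that reached 1 FPKM in either library. The transport genes all lie between -0.31 and 0.19, and 0.507% of all genes lie beyond the plotted limits of -2 and 2.

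Counting error was small enough to separate some of these modest differences from equality. The counting interval of the ratio lay below 1 for 9 of the 31 members and above 1 for 2, which is 29.0% and 6.45% of them. Over all 14000 genes these shares were 22.3% and 17.7%. Over the 7648 protein-coding genes with a mean between 3.42 and 28.6 FPKM, the range that the members span, they were 23.7% and 17.1%. The share below 1 was thus near that of other genes. The 9 with an interval below 1 were Wdr19, Ift122, Ift81, Ift22, Ttc30b, Ift172, Ift57, Kif3a and Wdr60, at least 1 from every complex and motor, and the 2 above 1 were Ttc21b and Ttc26. In whole tissue, a lower value from fewer cells that express a gene cannot be told apart from less RNA in each cell. For Ift81 and Ift57 the upper ends of the intervals, 0.9999 and 0.998, were so close to 1 that a rescaling of the Dyrk2-KO library by 1.01 moved them past it.

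**Figure D2:**
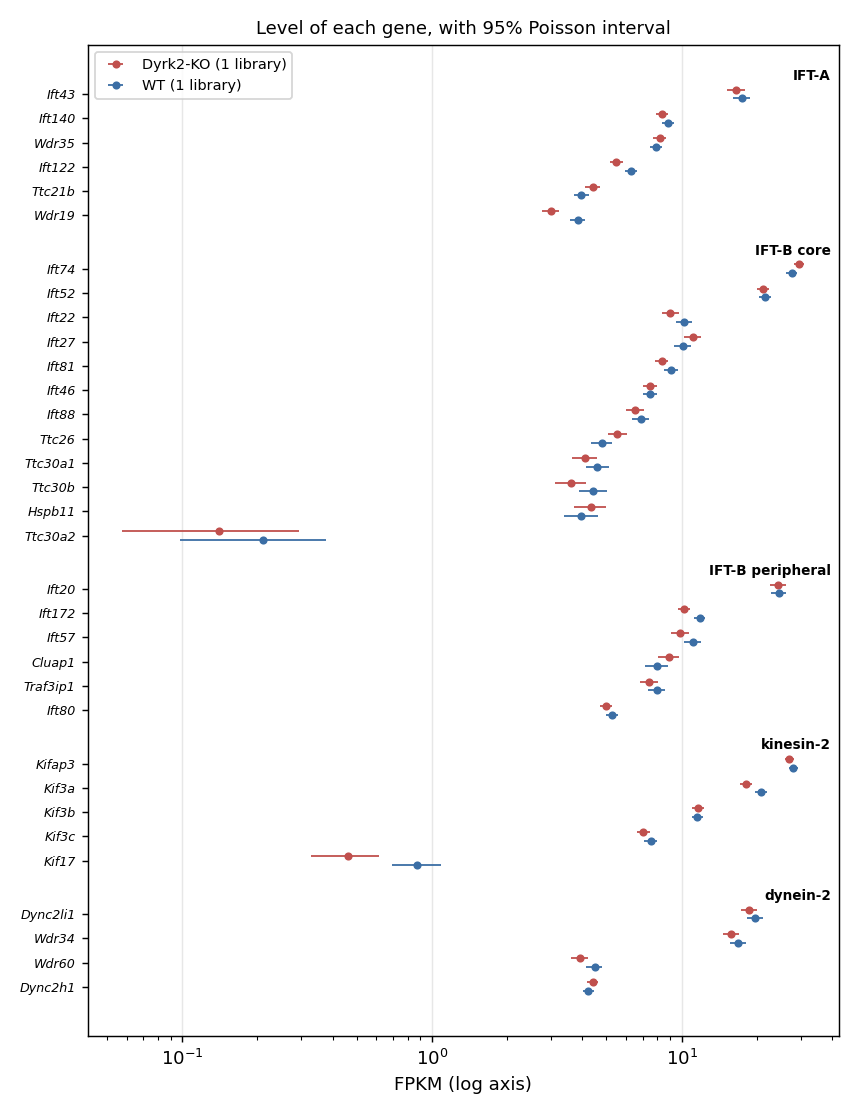
Level of each of the 33 genes in FPKM on a log axis, grouped by complex and ordered by WT level, with Dyrk2-KO drawn above WT and bars for the 95% Poisson interval. Most genes lie between 3 and 30 FPKM with both libraries close together, and Kif17 and Ttc30a2 are below 1 FPKM in both.

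IFT-A, the complex of the return journey and of receptor entry, held the lowest ratio of the genes above 1 FPKM. Wdr19, a core subunit on chromosome 5 (65199696 to 65260415, plus strand, GRCm38), had 2.99 FPKM in the Dyrk2-KO library from 678 fragments, against 3.84 FPKM in the WT library from 868 fragments. Its ratio was 0.778 (0.703 to 0.862). Ift122, another core subunit, had 5.48 FPKM in Dyrk2-KO and 6.27 FPKM in WT, a ratio of 0.874 (0.807 to 0.948). The third of the core genes, Ift140, had 8.36 FPKM in Dyrk2-KO and 8.82 FPKM in WT, and its interval of 0.880 to 1.02 took in equal levels.

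Of the peripheral subunits of IFT-A, Ttc21b and Wdr35 had intervals wholly above that of Wdr19, as had the core gene Ift140. The interval of Ift43, 0.846 to 1.07, overlapped that of Wdr19. Ttc21b, whose loss in mouse alters Hedgehog patterning of the neural tube, had 4.41 FPKM in Dyrk2-KO and 3.97 FPKM in WT, a ratio of 1.11 (1.004 to 1.23). The intervals of Wdr19 and Ttc21b, which are parts of 1 complex, do not overlap. Wdr35 had 8.17 FPKM in Dyrk2-KO and 7.90 FPKM in WT. Ift43, the small subunit, had 16.6 FPKM in Dyrk2-KO and 17.4 FPKM in WT. Both of their intervals included equal levels. Over the 6 genes, 4 log2 ratios lay below 0 and 2 above, with a median of -0.07. Below 0 were 66.7% of these 6, against 53.7% of all 14000 genes.

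The IFT-B core, the rigid part of the anterograde train, had 6 log2 ratios below 0 and 5 above among its 11 members of at least 1 FPKM. The share below 0, 54.5%, was near the 53.7% of all 14000 genes. This part was the most evenly balanced, with a median of -0.02. Its most abundant transcript was Ift74, at 29.5 FPKM in Dyrk2-KO and 27.6 FPKM in WT. Ift81, which binds tubulin together with Ift74, had 8.31 FPKM in Dyrk2-KO and 9.07 FPKM in WT, a ratio of 0.916 (0.839 to 0.9999). Ift52, which links the subunits of the core, had 21.2 FPKM in Dyrk2-KO and 21.5 FPKM in WT. Ift88, the gene most often deleted in mouse to remove cilia, had 6.51 FPKM in Dyrk2-KO and 6.86 FPKM in WT, a ratio of 0.95 (0.848 to 1.06). Ift46 had 7.49 FPKM in Dyrk2-KO and 7.46 FPKM in WT. Of these 5, the interval excluded equal levels for Ift81 alone.

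The small GTPases of the core and the partner of one of them went different ways by small amounts. Ift27, a Rab-like protein that helps receptors leave the cilium, had 11.1 FPKM in Dyrk2-KO and 10.1 FPKM in WT, a ratio of 1.10 (0.981 to 1.23). Hspb11, its binding partner, had 4.32 FPKM in Dyrk2-KO and 3.95 FPKM in WT, a ratio of 1.09 (0.880 to 1.36) from 180 and 164 fragments. Neither interval excluded equal levels. Ift22, another Rab-like protein, had 9.01 FPKM in Dyrk2-KO and 10.2 FPKM in WT, and its ratio of 0.884 (0.795 to 0.984) lay below 1. Ttc26, a subunit linked in Chlamydomonas to the import of motility proteins, lies on chromosome 6 (38381469 to 38427647, plus strand). It had 5.53 FPKM in Dyrk2-KO from 520 fragments and 4.78 FPKM in WT from 448 fragments, a ratio of 1.16 (1.02 to 1.32) and the highest of all members.

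Of the 3 Ttc30 genes, which encode near-identical versions of 1 core subunit, only Ttc30a1 and Ttc30b reached 1 FPKM. All 3 lie on the minus strand of chromosome 2, Ttc30a2 and Ttc30a1 next to each other and Ttc30b further away. Ttc30b runs from 75935849 to 75938585, Ttc30a2 from 75975740 to 75978170 and Ttc30a1 from 75978247 to 75981967. Ttc30a1 had 4.09 FPKM in Dyrk2-KO and 4.60 FPKM in WT. Ttc30b had 3.60 FPKM in Dyrk2-KO and 4.41 FPKM in WT, a ratio of 0.815 (0.672 to 0.988). Ttc30a2 had 0.14 FPKM in Dyrk2-KO, from 7 fragments, and 0.21 FPKM in WT, from 10 fragments. Its ratio of 0.698 (0.225 to 2.03) could not be distinguished from 1 at this depth.

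The values of these 3 genes depend on how fragments that fit more than 1 of them were assigned, which the sources used here do not give. Their coding sequences are 1995 bases long each in GENCODE M21. Ttc30a1 and Ttc30a2 are identical at 95.14% of positions, Ttc30a1 and Ttc30b at 94.84%, and Ttc30a2 and Ttc30b at 94.89%. Of all stretches of 100 bases in the Ttc30a1 coding sequence, 36.9% also occur in Ttc30a2 and 14.7% in Ttc30b. The stretch of 60 coding bases with the most differences, positions 559 to 618 counted from the start codon, is shown to make clear where fragments can be told apart. Capitals mark the 19 positions at which the 3 genes are not all alike, 5′ to 3′ on the coding strand.
Ttc30a1: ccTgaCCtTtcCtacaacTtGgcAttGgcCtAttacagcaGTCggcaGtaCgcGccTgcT
Ttc30a2: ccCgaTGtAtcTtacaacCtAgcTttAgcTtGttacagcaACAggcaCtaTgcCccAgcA
Ttc30b: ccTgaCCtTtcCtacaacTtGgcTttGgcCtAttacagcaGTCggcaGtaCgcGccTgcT
In this stretch Ttc30a1 and Ttc30b are nearly the same and Ttc30a2 stands apart, so fragments from here separate Ttc30a2, the gene with 7 and 10 fragments, from the other two.

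Peripheral IFT-B, which docks kinesin-2 and membrane cargo, had 5 log2 ratios below 0 and 1 above, with a median of -0.08. Below 0 were 83.3% of these 6 genes, against 53.7% of all 14000 genes. The log2 ratio of Ift20 was so near 0 that other scalings put it above. Ift172, the largest IFT-B subunit, which acts in the turnaround of trains at the tip in Chlamydomonas, had 10.2 FPKM in Dyrk2-KO and 11.8 FPKM in WT, a ratio of 0.866 (0.805 to 0.932). Ift57 had 9.88 FPKM in Dyrk2-KO and 11.1 FPKM in WT, a ratio of 0.890 (0.794 to 0.998). These were the peripheral genes with an interval below 1. Ift20, which also works at the Golgi in sorting ciliary membrane proteins, had 24.2 FPKM in Dyrk2-KO and 24.4 FPKM in WT. Its partner Traf3ip1, a microtubule-binding subunit, had 7.42 FPKM in Dyrk2-KO and 7.94 FPKM in WT. Both genes of this pair had intervals that included equal levels.

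Ift80, mutated in human skeletal ciliopathies, had 5.0 FPKM in Dyrk2-KO and 5.27 FPKM in WT. Cluap1, the partner of Ift57, had 8.86 FPKM in Dyrk2-KO and 7.95 FPKM in WT, a ratio of 1.11 (0.965 to 1.29). Cluap1 shares 22.4% of its exon bases with Gm20695 on the same strand, a gene with 10 fragments in Dyrk2-KO and 3 in WT.

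**Figure D3:**
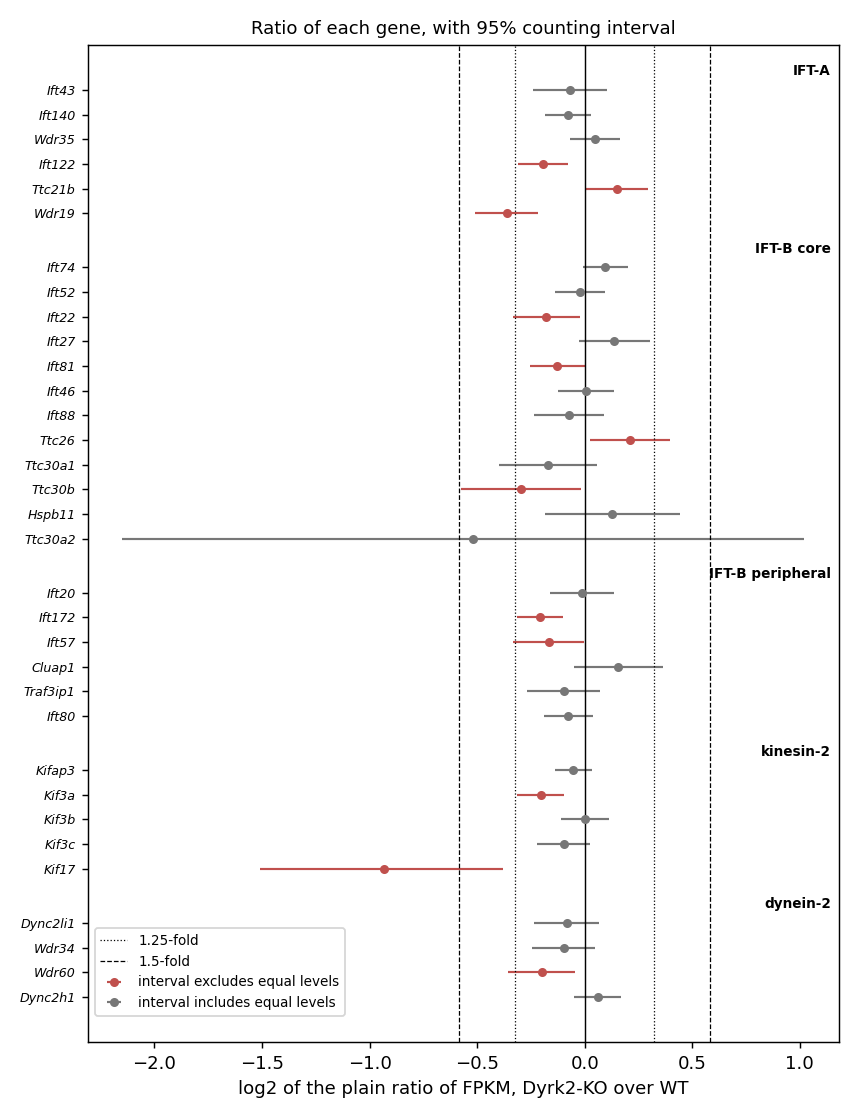
Plain ratio of FPKM, Dyrk2-KO over WT, on the log2 scale for each of the 33 genes, with bars for the 95% counting interval. Red marks an interval that excludes equal levels; dotted lines mark 20% lower and 25% higher, and dashed lines 1.5-fold. Wdr19 and Kif17 are the genes whose ratio lies left of the lower dotted line with an interval that excludes equal levels.

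Kinesin-2 carries trains to the tip, and its subunits were not all alike. The motor subunit Kif3a lies on chromosome 11 (53567379 to 53601967, plus strand). It had 18.1 FPKM in Dyrk2-KO from 1302 fragments and 20.8 FPKM in WT from 1495 fragments, a ratio of 0.868 (0.805 to 0.935). Kif3b, the usual partner of Kif3a in ciliary trains, had 11.6 FPKM in both libraries, with 1314 fragments in Dyrk2-KO and 1307 in WT, a ratio of 1.002 (0.927 to 1.08). The level of Kif3a over that of Kif3b was 1.56 in Dyrk2-KO and 1.80 in WT. Kifap3, the accessory subunit that joins the motor to cargo, had 27.0 FPKM in Dyrk2-KO and 28.0 FPKM in WT. It was the most abundant kinesin-2 transcript in both.

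Kif3c, a neuronally enriched subunit that can replace Kif3b, had 7.03 FPKM in Dyrk2-KO and 7.52 FPKM in WT, a ratio of 0.935 (0.858 to 1.02). It shares 35.3% of its exon bases with the antisense gene 1110002L01Rik, which had 6.68 FPKM in Dyrk2-KO and 7.93 FPKM in WT. The libraries mark strand, but whether the counting used it is not given in the sources used here, so fragments of this pair may not be separated.

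Kif17, the kinesin-2 that works as a homodimer and is known from dendrites and photoreceptors, was the member furthest from equality. It lies on chromosome 4 (138250435 to 138301967, plus strand). It had 0.46 FPKM in Dyrk2-KO (0.33 to 0.62) from 42 fragments, and 0.87 FPKM in WT (0.69 to 1.08) from 80 fragments. The Dyrk2-KO level was 52.3% of the WT level (35.1% to 76.9%), and the intervals of the levels did not overlap. With 0.5 FPKM added to both values the log2 ratio was -0.51. Being under 1 FPKM in both libraries, Kif17 is outside the 31 genes above. It shares 74 exon bases, 1.6% of its exons, with Sh2d5 on the same strand, a gene with 33 fragments in Dyrk2-KO and 60 in WT. The part of shared fragments in the values of either gene was not tested. Neuron markers differed between the libraries in both directions, with values given after the comparison lists, and the part of neurons in the ratio of Kif17 was not tested either.

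Dynein-2 brings trains back to the base, and its 4 genes had log2 ratios from -0.18 to 0.05. Dync2h1, the heavy chain that holds the motor domain, had 4.41 FPKM in Dyrk2-KO and 4.23 FPKM in WT, a ratio of 1.04 (0.968 to 1.12). Dync2li1, the light intermediate chain, had 18.6 FPKM in Dyrk2-KO and 19.7 FPKM in WT. The intermediate chain gene Wdr34 had 15.7 FPKM in Dyrk2-KO and 16.8 FPKM in WT. None of these intervals excluded equal levels. Wdr60, which encodes the other intermediate chain, had 3.90 FPKM in Dyrk2-KO and 4.48 FPKM in WT, a ratio of 0.870 (0.782 to 0.97).

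Within each complex, the member genes had transcript levels several-fold apart, and about equally so in both libraries. The highest over the lowest FPKM among members of at least 1 FPKM was 5.54 in Dyrk2-KO and 4.52 in WT for IFT-A. It was 8.2 in Dyrk2-KO and 6.99 in WT for the IFT-B core, and 4.85 in Dyrk2-KO and 4.64 in WT for peripheral IFT-B. For kinesin-2 it was 3.84 in Dyrk2-KO and 3.73 in WT, and for dynein-2 4.77 in Dyrk2-KO and 4.66 in WT. These spreads are between genes and not always between subunits of 1 particle. The lowest IFT-B core gene was Ttc30b in Dyrk2-KO, 1 of 3 versions of 1 subunit, and Hspb11 in WT. Kif3c, the lowest of kinesin-2, is an alternative to Kif3b. By deposited FPKM, the order of levels was the same in both libraries for IFT-A, peripheral IFT-B and kinesin-2. In dynein-2 the lowest places of Dync2h1 and Wdr60 were exchanged, and their intervals overlapped in each library. Of the 28 pairs of neighbours in these orders, 11 in Dyrk2-KO and 10 in WT had overlapping intervals and are not separated by counting error.

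The deposited lengths count every exon of every transcript, which lowers the FPKM of genes with many alternative exons. The exon length was from 1.0 to 3.41 times the length of 1 principal transcript, and over 2 times for 7 members. Per kilobase of that transcript, Hspb11 reached 14.7 in Dyrk2-KO and 13.5 in WT, and Ift27 31.4 in Dyrk2-KO and 28.5 in WT. Ift80 moved from the lowest to the second place of peripheral IFT-B on this scale, at 15.3 in Dyrk2-KO and 16.1 in WT. The highest and lowest genes of IFT-A, Ift43 and Wdr19, kept their places in both libraries. Whether the order was the same in both libraries also depended on the length. Per kilobase of that transcript, Ift140 and Wdr35 exchanged places between the libraries, as did Ift57 and Cluap1. The order of dynein-2 was then the same in both, as was that of kinesin-2. Ratios between the libraries do not depend on the length used.

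**Figure D4:**
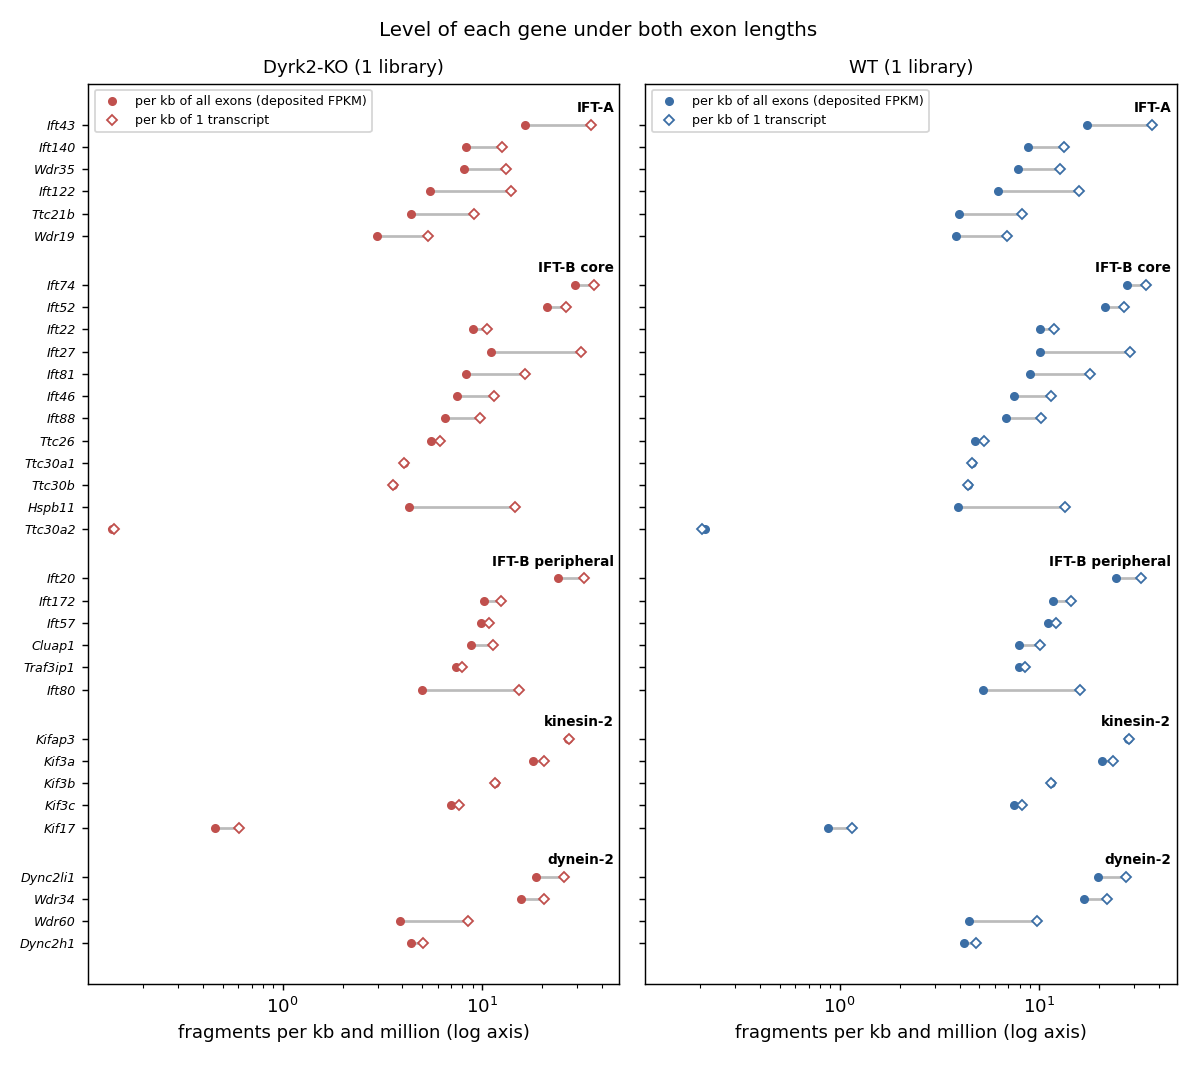
Length-scaled level in FPKM on a log axis for each gene in the Dyrk2-KO library (left) and the WT library (right), with filled circles for the deposited exon length and open diamonds for the length of 1 principal transcript. Hspb11, Ift80 and Ift27 move furthest to the right, while Ttc30a1, Ttc30b and Kif3b stay in place.

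Ciliary genes are commonly read by RFX factors, which bind an inverted repeat known as the X-box, so the starts of the members were searched for its letters. Of the 33 genes, 28 had a promoter in the RefSeq table for GRCm38.p6, from 250 bases before to 50 after the start. The inverted pair, GTTNCC followed after 0 to 3 bases by GGNAAC, reads the same on both strands and occurred in 3 of 28, or 10.7%, against 0.804% of all 32851 promoters in the table. The single site GTTGCC, on either strand and counted also inside a pair, occurred in 13 of 28, or 46.4%, against 4111 of the 32851. Members were counted once per gene, with a match in any promoter of the gene, and the whole table per promoter. The 32851 promoters belong to 27025 genes by symbol, so the shares are not of like units. A match is a description of letters and not of binding. The pairs are shown in capitals within 30 bases on the strand of the gene, 5′ to 3′, since they are the fullest matches among the members.
Ift57, chr16:49699226-49699255, plus strand: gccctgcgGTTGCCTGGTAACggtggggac
Ttc26, chr6:38381483-38381512, plus strand: ccggcggcGTTGCCGTGGAAACggagctcg
Ttc30a2, chr2:75978182-75978211, minus strand: gttggcttGTTGCCATGGGAACaagcacac
Counted from the RefSeq start, the pair begins 60 bases before that of Ift57, 33 before that of Ttc26 and 24 before that of Ttc30a2. The GENCODE genes Ift57 and Ttc26 begin further upstream, at 49699233 and 38381469, so these 2 pairs lie inside the GENCODE genes. The 3 genes with a pair did not share a direction or a level. The ratio was below 1 for Ift57 and above 1 for Ttc26, and Ttc30a2 was nearly silent in both libraries.

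Single sites are shown likewise for the motors Kif3a and Kif17, whose ratios were below 1, and for the IFT-A gene Ift140. Sites not shown include those of Dync2h1, Ift27, Ttc26 and Wdr35, whose ratios were above 1. The start that RefSeq uses here for Kif17 also lies inside the GENCODE gene.
Ift140, chr17:25015965-25015994, plus strand: gcgtgttgtgacGGCAACctcgcgcccttg
Kif17, chr4:138262166-138262195, plus strand: gacgtcacggagGTTGCCcagcaacggcga
Kif3a, chr11:53567259-53567288, plus strand: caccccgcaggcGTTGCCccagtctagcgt
The 11 members of at least 1 FPKM with a single site had a median log2 ratio of -0.07, and 7 lay below 0. The 15 without one had a median of -0.02, and 9 lay below 0. Over all 14000 genes, 53.7% lay below 0. Of the RFX genes, Rfx3, a factor of ciliogenesis in mouse, had 6.24 FPKM in Dyrk2-KO and 7.86 FPKM in WT, a ratio of 0.794 (0.739 to 0.853). Rfx2 had 1.52 FPKM in Dyrk2-KO and 2.14 FPKM in WT, a ratio of 0.711 (0.596 to 0.847), and Rfx1 6.18 FPKM in Dyrk2-KO and 6.85 FPKM in WT, a ratio of 0.902 (0.818 to 0.993). Rfx7 went the other way, at 6.72 FPKM in Dyrk2-KO and 6.13 FPKM in WT. Rfx5, the most abundant of them, had 8.91 FPKM in Dyrk2-KO and 8.76 FPKM in WT, with an interval that included equal levels. Of the list of 7 factors, made up of RFX genes and Foxj1, 6 reached 1 FPKM, with 3 intervals below 1 and 1 above. Over all 14000 genes, 22.3% of intervals lay below 1 and 17.7% above. The part of these factors in the values of the members was not tested.

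Genes that act on the trains and the cytoplasmic relatives of the motors were set beside the members. For their interval counts, the shares over all 14000 genes were 22.3% below 1 and 17.7% above. Of 12 genes of regulators and adaptors of transport, 11 reached 1 FPKM, with a median log2 ratio of -0.12, 3 intervals below 1 and 2 above. Among them Arl3, a GTPase that releases ciliary cargo, had 34.7 FPKM in Dyrk2-KO and 31.9 FPKM in WT, and Inpp5e, a ciliary lipid phosphatase, 9.28 FPKM in Dyrk2-KO and 11.5 FPKM in WT. Of the 12 genes of dynein-1 and dynactin, the retrograde motor of the cytoplasm, 11 reached 1 FPKM, with a median of -0.02, 2 intervals below 1 and 3 above. Dctn3 of dynactin had 43.6 FPKM in Dyrk2-KO and 46.1 FPKM in WT, and Actr1a, the actin-related protein of its filament, 43.2 FPKM in Dyrk2-KO and 41.0 FPKM in WT. The 6 genes of kinesin-1, an anterograde motor of the cytoplasm, had a median of -0.03, 2 intervals below 1 and 1 above. Its heavy chain gene Kif5b had 33.9 FPKM in Dyrk2-KO and 32.8 FPKM in WT, and the light chain gene Klc1 26.7 FPKM in Dyrk2-KO and 26.2 FPKM in WT. None of these 3 lists held a gene past 1.5-fold.

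Markers of mesenchyme and of neurons had wider ranges of log2 ratio than the transport genes. Among all 14000 genes, 22.3% had an interval below 1 and 17.7% above. Of 8 mesenchyme markers, 7 had an interval below 1 and 1 above, with a summed level of 128 FPKM in Dyrk2-KO and 213.5 FPKM in WT, and none of the list was at 0. Its most abundant genes were the fibrillar collagens Col3a1, at 62.1 FPKM in Dyrk2-KO and 91.7 FPKM in WT, and Col1a2, at 26.7 FPKM in Dyrk2-KO and 34.9 FPKM in WT. Past 1.5-fold were Col1a1, with 16.2 FPKM in Dyrk2-KO and 42.7 FPKM in WT, and the mesenchymal regulator Twist1, with 6.84 FPKM in Dyrk2-KO and 15.7 FPKM in WT. So were the pericyte receptor gene Pdgfrb, with 8.50 FPKM in Dyrk2-KO and 17.7 FPKM in WT, Twist2, with 1.03 FPKM in Dyrk2-KO and 2.42 FPKM in WT, and, in the other direction, Prrx1, with 1.67 FPKM in Dyrk2-KO and 0.83 FPKM in WT. Neurons, which express Kif17, Kif3c and Kif3a, were gauged with 10 markers, of which 9 reached 1 FPKM. Their summed level over all 10 was 92.8 FPKM in Dyrk2-KO and 104 FPKM in WT, and none was at 0. They parted, with 7 intervals above 1, such as Tubb3 at 23.1 FPKM in Dyrk2-KO and 15.9 FPKM in WT, and 2 below 1, Nefm at 9.19 FPKM in Dyrk2-KO and 16.8 FPKM in WT, and Nefl at 34.0 FPKM in Dyrk2-KO and 49.99 FPKM in WT. The part of these differences in cell makeup in the ratios of the transport genes was not tested.

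**Figure D5:**
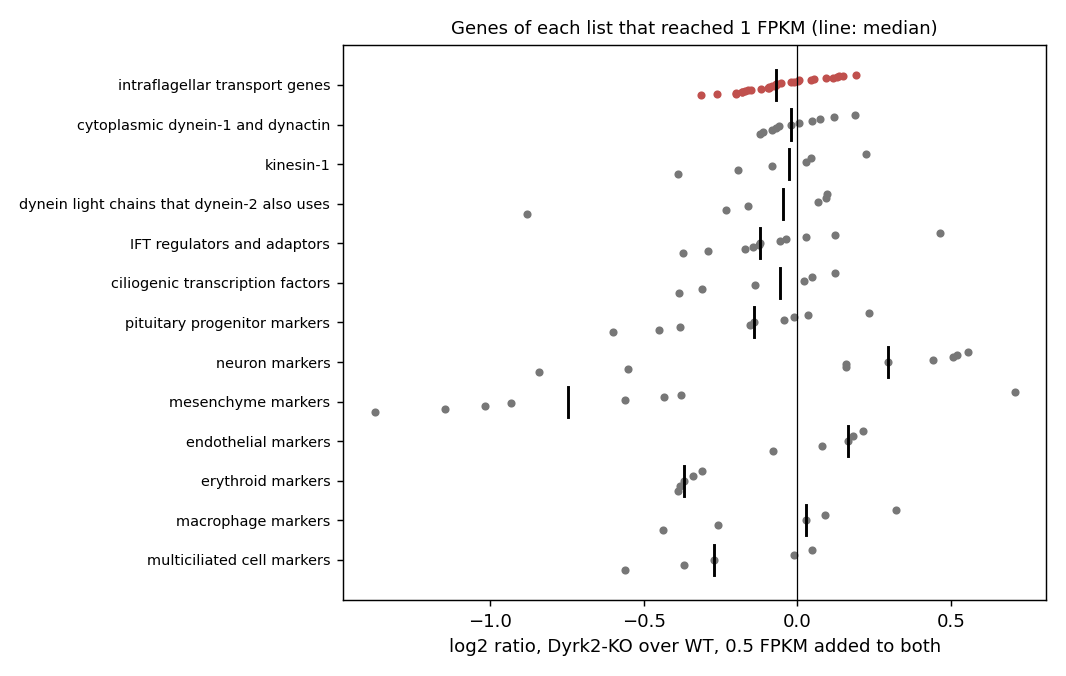
Log2 ratio of Dyrk2-KO over WT, with 0.5 FPKM added to both values, for each gene that reached 1 FPKM in either library; each row is a list, each point a gene and each black line the list's median. The 31 transport genes in red lie between -0.31 and 0.19, while mesenchyme markers reach from -1.37 to 0.71 and neuron markers from -0.84 to 0.55.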

How the data were processed

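RNA of whole pituitaries at E12.5 was sequenced as 1 stranded, polyA-selected library per genotype, per the labels. The authors deposited FPKM per Ensembl gene with the summed exon length of the gene, per the file headers. The submitters' processing notes name cutadapt 1.9.1, HISAT2 2.0.1 and build GRCm38. The counting tool, its use of strand and of fragments that fit several genes, and the annotation release are not stated in the labels or headers. FPKM scaled to a library total can be shifted by abundant transcripts, which the alternative scalings address. Symbols and coordinates came from GENCODE M21 (GRCm38), in which 55141 of 55401 identifiers matched.

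FPKM multiplied by exon length moved in steps of 1 fragment, which gave estimated totals of 20115768 fragments (Dyrk2-KO) and 20044925 fragments (WT). Whole fragments summed over genes came to 20115713 (Dyrk2-KO) and 20045029 (WT), so the totals are not known to the single fragment. All 1372 and 1512 values checked were whole within 0.1 fragment. The check took values of up to 100 fragments whose rounding error was under 0.05 fragment. No member was among them, since rounding of FPKM weighs more on longer exons. The fragment numbers of members are the nearest whole ones and can be off through rounding. Fragment numbers gave exact Poisson intervals of FPKM and exact Clopper-Pearson intervals of the ratio, which leave out that rounding. No count model was run. Log2 ratios are Dyrk2-KO over WT with 0.5 FPKM added, for genes that reached 1 FPKM in either library, and understate the change of weakly expressed genes. Steps were tested on simulated counts.

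The members and lists were chosen with earlier results of these data known. Every member is named; of each comparison list, the 2 most expressed genes and up to 4 that differ most, by 1.5-fold or more, are named. Lhx3, Prrx1, Rfx1, Rfx2, Rfx7, Dnah5, Tulp3, Tub and Mok fall outside that rule and were picked with their values in view. The principal transcript of a gene was the longest APPRIS principal one. Alternatives were 2 other pseudocounts, 2 other filters, 3 scalings and lists without 1 complex or without overlapping genes. Python 3.11.15, pandas 2.3.3, numpy 2.4.6, scipy 1.17.1 and matplotlib 3.10.9 were used.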

Additional observations from a re-analysis of the deposited data

How the results depend on the processing

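The median log2 ratio of the members stayed between -0.077 and -0.054 under all alternatives run. Among the members that passed the filter in use, none was past 1.5-fold under the alternatives run. Kif17, under the filter, had a log2 ratio of -0.79 with a pseudocount of 0.1 FPKM, which is past 1.5-fold, and -0.22 with 2 FPKM, against -0.51 as reported. The count at least 20% lower became 1 with a pseudocount of 0.1 FPKM, through Wdr19, and 1 without a filter on low values, through Kif17, against 0 as reported. Scaling by the upper quartile or by a trimmed mean left 7 intervals below 1 and 3 above, since Ift81 and Ift57 lost their place below 1 and Ift74 gained one above. Of 165 values of single members under other pseudocounts and scalings, 2 changed sign, both of Ift20, whose log2 ratio of -0.01 became 0.003 with the upper quartile and 0.006 with the trimmed mean. With the length of 1 transcript per gene, chosen after seeing the data, the spread of levels became 6.59 in Dyrk2-KO and 5.38 in WT for IFT-A, 10.2 in Dyrk2-KO for the IFT-B core, 4.09 in Dyrk2-KO and 3.85 in WT for peripheral IFT-B, and 5.62 in WT for dynein-2. This follows from the lengths alone. Ttc30a2 and Kif17, with few fragments, are limited by depth. No paired analysis was possible because each genotype has a single library, and leaving out a replicate could not be run for the same reason.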

Other observations

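Genes of motile cilia were near the floor of detection for the most part, and a few were not. Of 13 markers of multiciliated cells, 5 reached 1 FPKM. Dnah5, an axonemal dynein, had 0.03 FPKM in both libraries, whereas Tekt1, a tektin of axonemal microtubules, had 5.52 FPKM in Dyrk2-KO and 8.37 FPKM in WT, a ratio of 0.659 (0.543 to 0.799). Foxj1, the regulator of motile ciliogenesis, had 2.35 FPKM in Dyrk2-KO and 2.26 FPKM in WT. Among light chains that dynein-2 shares with dynein-1, Dynll2 had 197 FPKM in Dyrk2-KO and 188 FPKM in WT, and Dynlrb1 95.8 FPKM in Dyrk2-KO and 89.9 FPKM in WT. Dynlrb2, a light chain tied to cilia, had 0.36 FPKM in Dyrk2-KO from 4 fragments and 1.08 FPKM in WT from 12 fragments, a ratio of 0.332 (0.0781 to 1.10). Of the remaining lists shown beside the transport genes, the median log2 ratio was 0.17 for 5 endothelial markers, -0.37 for 5 erythroid markers and 0.03 for 5 macrophage markers. Their most abundant genes were Cdh5, at 28.1 FPKM in Dyrk2-KO and 24.1 FPKM in WT, Hbb-y, at 1285 FPKM in Dyrk2-KO and 1675 FPKM in WT, and C1qb, at 7.54 FPKM in Dyrk2-KO and 7.38 FPKM in WT. Next in abundance were Pecam1, at 10.8 FPKM in Dyrk2-KO and 9.54 FPKM in WT, Hba-x, at 228 FPKM in Dyrk2-KO and 294 FPKM in WT, and C1qa, at 5.21 FPKM in Dyrk2-KO and 6.33 FPKM in WT.

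Tub, a relative of the IFT-A adaptor Tulp3, had the highest ratio among the regulators of transport, with 5.07 FPKM in Dyrk2-KO and 3.54 FPKM in WT, a ratio of 1.43 (1.29 to 1.59). Tulp3 itself had 6.94 FPKM in Dyrk2-KO and 6.79 FPKM in WT. Mok, a kinase related to those that act on the trains, had 1.74 FPKM in Dyrk2-KO and 2.40 FPKM in WT, a ratio of 0.723 (0.566 to 0.921).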
